A study of Homo sapiens with 10 samples.

Results

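The 9 genes described here belong to the antioxidant program of the transcription factor NRF2: NFE2L2, KEAP1, NQO1, HMOX1, GCLC, GCLM, TXNRD1, SRXN1 and AKR1C1. They were taken from the deposited count table by an exact match of the gene symbol, and all 9 of the 9 symbols were found among its 25370 genes. All 9 passed the filter on low counts, which left 16490 genes for the tests. PEO1 is an established line of high grade serous ovarian cancer cells that lack functional BRCA2, a DNA repair protein. The resistant clones ABTr1, ABTr2, ABTr3 and ABTr4 were derived from PEO1 by 6 months in 40 µM of the PARP inhibitor veliparib. They were off the drug for 4 to 5 days when RNA was taken. Parental PEO1 is the line they are set against. Cells of all groups were grown in the same DMEM medium with serum, insulin and glutamine. There were 2 libraries of polyadenylated RNA for each clone and 2 of parental PEO1, 10 in all, and each of the 4 resistant lines is 1 clone.

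NRF2, the product of NFE2L2, is held in the cytoplasm by KEAP1, which hands it to a ubiquitin ligase for degradation. Oxidants and electrophiles modify cysteines of KEAP1, and NRF2 then accumulates in the nucleus. There it pairs with a small MAF protein to bind antioxidant response elements near genes of glutathione synthesis, thioredoxin recycling, quinone reduction and heme breakdown. Much of this control acts on the NRF2 protein, which was not measured here. PARP inhibitors kill BRCA2-deficient cells through unrepaired DNA damage. The comparison here asks whether the mRNA of the antioxidant program differs between cells that have become resistant and the cells they came from.

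Total counts ran from 20640602 to 55488566 per library. CPM, counts per library scaled to a common depth, are given after TMM scaling, and levels of different genes are compared as FPKM, that is per kilobase of exon. In each group replicate 1 was the deeper library, and libraries of equal replicate number varied together. A second fit took that number as a block, and its values are given where it changed a call. Of the 5 epithelial markers checked (EPCAM, CDH1, KRT8, KRT18 and KRT19) the summed level was 1850 to 2380 CPM in the 8 clone libraries and 6170 to 9400 CPM in the 2 parental libraries. The 4 serous ovarian markers (PAX8, WT1, MUC16 and MECOM) summed to 109 to 222 CPM in the clone libraries and 162 to 191 CPM in the parental ones. Of the 5 fibroblast markers, DCN, LUM and COL3A1 had no read in any library, and the list summed to 1.84 to 15.7 CPM in clone libraries and 8.16 to 8.55 CPM in parental ones. The 4 leukocyte markers summed to 72.0 to 145 CPM in clone libraries and 39.6 to 52.5 CPM in parental ones, mostly CD68, and the defining markers PTPRC and CD3E stayed at or below 0.236 CPM in every library. The 4 endothelial markers summed to 2.01 to 16.3 CPM in clone libraries and 15.5 to 62.3 CPM in parental ones, mostly CDH5 in the parental ones. Among the serous markers PAX8 was at a mean of 137 CPM in clone libraries and 124 CPM in parental ones. MUC16 was at 0.470 CPM in clone libraries and 43.5 CPM in parental ones, and WT1 at 1.24 and 8.26 CPM. MECOM went the other way, at 17 CPM in clone libraries and 0.404 CPM in parental ones. The epithelial marker CDH1 was at a mean of 1.88 CPM in clone libraries and 252 CPM in parental ones. The part of these marker differences in the results below was not tested. In bulk RNA, fewer cells of a type and less RNA per cell cannot be told apart.

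Of the 9 genes HMOX1 had the clearest difference, with more reads in the resistant clones, and KEAP1 was lower in all clone libraries without passing the test. For the 4 clones averaged and set against parental cells, 0 of the 9 genes passed an edgeR quasi-likelihood test at an adjusted p under 0.05, although 2631 of the 16490 genes tested did (16.0%). At an unadjusted p under 0.05 there was 1 of the 9 in that comparison, HMOX1. The share of all genes at that unadjusted threshold was not counted, here or below. DESeq2 called 1 of the 9, again HMOX1, beside 15.5% of all genes, and limma-voom called 0, beside 14.5% of all genes. The median log2 fold change over the 9 genes was -0.28, beside 0.02 over all genes tested. With the replicate block 2 of the 9 passed, HMOX1 as higher and NFE2L2 as lower in the clones, in a fit that called 34.6% of all genes.

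**Figure D1:**
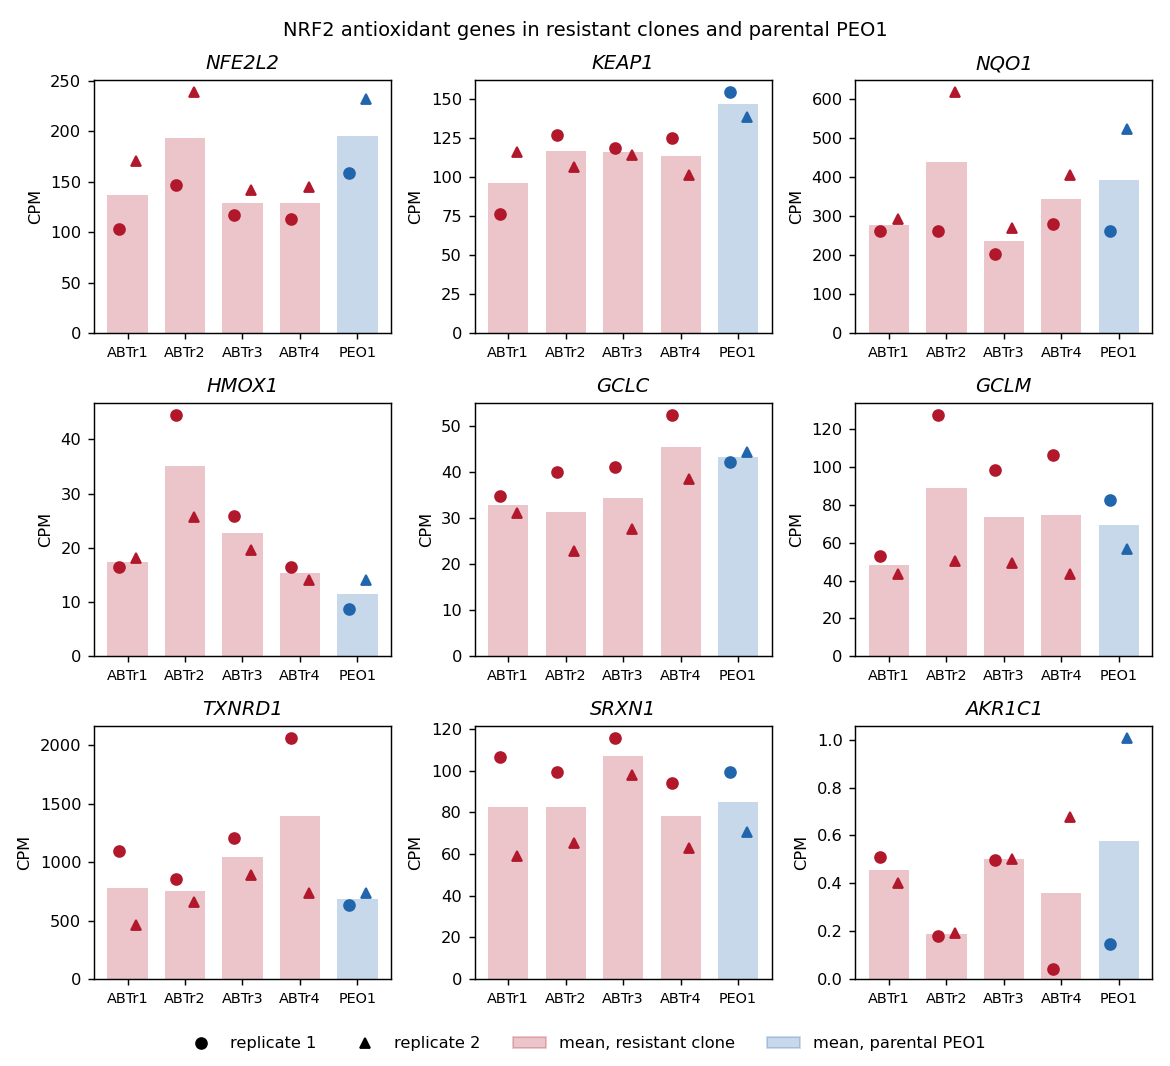
Normalized CPM (vertical axes, from 0) of the 9 genes in each library of the 4 resistant clones (red) and parental PEO1 (blue); circles are replicate 1, triangles replicate 2 and bars the mean of the 2 libraries. HMOX1 stood at 14.1 to 44.5 CPM in the clone libraries, above the 8.73 and 14.01 CPM of the parental ones, KEAP1 stood below both parental libraries in all 8 clone libraries, and for the other 7 genes the 8 clone libraries as a whole overlapped the parental ones.

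The regulators come first. NFE2L2 (the gene of NRF2; hg19 chromosome 2, 178095031 to 178129859, minus strand, 6 exons) had 103 and 171 CPM in ABTr1, 147 and 239 CPM in ABTr2, 117 and 142 CPM in ABTr3 and 113 and 144 CPM in ABTr4, against 158 and 232 CPM in parental PEO1 (replicate 1 before replicate 2 in each pair). Both libraries of ABTr3 and of ABTr4 lay below both parental ones, while ABTr1 and ABTr2 overlapped the parental range. In every group replicate 2 was the higher library. The mean was 147 ± 30.9 CPM (SD, n = 4 clones) in the clones and 195 ± 51.9 CPM (SD, n = 2 libraries) in parental cells, a log2 fold change of -0.43 (SE 0.27, 95% interval -1.05 to 0.19, adjusted p = 0.32, edgeR). Each of the 4 replicate 1 libraries of the clones stood below replicate 1 of parental PEO1. In replicate 2, ABTr2 (239 CPM) stood above parental PEO1 (232 CPM), and ABTr1, ABTr3 and ABTr4 stood below it. In the blocked fit the log2 fold change was -0.43 (SE 0.14, adjusted p = 0.039, edgeR). Without the block it was -0.72 with PEO1 replicate 1 left out and -0.13 (adjusted p = 0.86, edgeR) with PEO1 replicate 2 left out. In single clones with the block, NFE2L2 passed as lower in ABTr3 (log2 fold change -0.57, adjusted p = 0.049, edgeR) and ABTr4 (-0.59, adjusted p = 0.039, edgeR). ABTr1 stood at -0.53 with an adjusted edgeR p of 0.054 in that fit. ABTr2 stood at -0.03 with one of 0.93. Whether the clones differed among themselves was tested directly, and the edgeR adjusted p was 0.99 without and 0.20 with the block.

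KEAP1 (hg19 chromosome 19, 10596796 to 10614054, minus strand, 7 exons), the adaptor that marks NRF2 for degradation, had 75.9 and 116 CPM in ABTr1, 127 and 106 CPM in ABTr2, 118 and 114 CPM in ABTr3 and 125 and 101 CPM in ABTr4, against 154 and 139 CPM in parental PEO1. All 8 clone libraries lay below both parental libraries, a pattern that 12.5% of all tested genes showed. The log2 fold change was -0.41 (SE 0.20, 95% interval -0.87 to 0.05), with an adjusted edgeR p of 0.20 without and 0.097 with the block. ABTr1 had the lowest mean at 96.0 CPM and the other clones stood between 113 and 116.5 CPM, with ranges that overlapped that of ABTr1. The mRNAs of the activator and of its inhibitor both had lower means in the clones, and neither passed without the block.

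HMOX1 (hg19 chromosome 22, 35777060 to 35790207, plus strand, 5 exons) encodes heme oxygenase 1, which cleaves heme into biliverdin, carbon monoxide and iron, and was the member with the clearest difference. It had 16.5 and 18.1 CPM in ABTr1, 44.5 and 25.8 CPM in ABTr2, 25.9 and 19.6 CPM in ABTr3 and 16.5 and 14.1 CPM in ABTr4, against 8.73 and 14.01 CPM in parental PEO1. All 8 clone libraries stood above both parental libraries, as did those of 14.5% of all tested genes, but replicate 2 of ABTr4 did so by less than 0.1 CPM. The clones averaged 22.6 ± 8.91 CPM (SD, n = 4 clones) and parental cells 11.4 ± 3.73 CPM (SD, n = 2 libraries), 1.89-fold (log2 fold change 0.92, SE 0.29, 95% interval 0.25 to 1.59, adjusted p = 0.067, edgeR). With the block the log2 fold change was 0.90 (SE 0.27) and passed with an adjusted edgeR p of 0.025. It also passed with DESeq2 (adjusted p = 0.026) and without ABTr2 replicate 2 (adjusted p = 0.048, edgeR), and its size was 0.58 with PEO1 replicate 1 left out and 1.29 with PEO1 replicate 2 left out.

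By clone, HMOX1 was the only one of the 9 genes to pass without the block, and it did so in ABTr2 alone. There it was 3.10-fold higher than in parental cells (log2 fold change 1.63, SE 0.36, 95% interval 0.82 to 2.44, adjusted p = 0.035, edgeR), in a comparison in which 6.11% of all genes were called. That call also stood with DESeq2 (adjusted p = 0.0011), limma-voom (adjusted p = 0.033) and the block (adjusted p = 0.0068, edgeR). It ended when any library other than ABTr2 replicate 2 was left out, with adjusted edgeR p of 0.054 to 0.14, and when the fit held ABTr2 and parental libraries alone (adjusted p = 0.17, edgeR). The log2 fold change stayed between 1.18 and 2.02. In ABTr3 the log2 fold change was 1.00 (adjusted p = 0.13, edgeR), and 0.99 with the block (adjusted p = 0.049, edgeR). ABTr1 and ABTr4 had log2 fold changes of 0.61 (SE 0.35) and 0.43 (SE 0.35). The order of the means was ABTr2, ABTr3, ABTr1, ABTr4 and parental PEO1, in which the ranges of ABTr2 and ABTr3 overlapped, as did those of ABTr1 and ABTr4. A difference of HMOX1 among the clones did not pass (adjusted p = 0.87, edgeR, and 0.15 with the block).

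**Figure D2:**
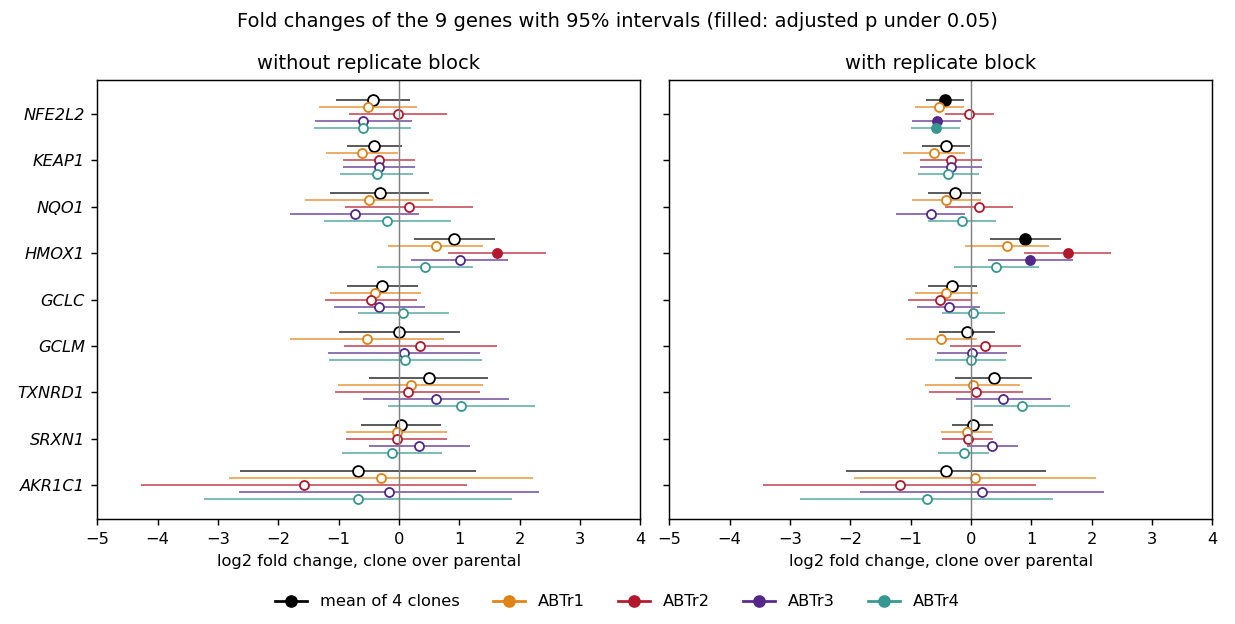
Log2 fold changes over parental PEO1 (horizontal axes) of the 9 genes for the mean of the 4 clones (black) and for each clone (colours), without and with the replicate block; lines are 95% intervals and filled points passed at an edgeR adjusted p under 0.05. Without the block HMOX1 in ABTr2 (1.63) is the 1 filled point, and with it NFE2L2 and HMOX1 are filled in the mean and in 2 clones each.

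Glutathione synthesis begins with glutamate cysteine ligase, whose catalytic subunit is GCLC and whose modifier subunit is GCLM. GCLC (hg19 chromosome 6, 53362140 to 53409927, minus strand) had 34.7 and 31.0 CPM in ABTr1, 39.9 and 22.8 CPM in ABTr2, 41.1 and 27.6 CPM in ABTr3 and 52.3 and 38.5 CPM in ABTr4, against 42.1 and 44.3 CPM in parental PEO1. Only replicate 1 of ABTr4 stood above the parental libraries, and the other 7 clone libraries stood below both. The log2 fold change of GCLC in the mean was -0.28 (SE 0.26, 95% interval -0.86 to 0.31, adjusted p = 0.51, edgeR). GCLM (hg19 chromosome 1, 94352590 to 94375012, minus strand) had 52.9 and 43.2 CPM in ABTr1, 128 and 50.1 CPM in ABTr2, 98.5 and 49.1 CPM in ABTr3 and 106 and 43.4 CPM in ABTr4, against 82.7 and 56.5 CPM in parental PEO1. Replicate 1 was the higher library in each of the 5 groups, and within ABTr2, ABTr3 and ABTr4 the gap was at least 2-fold. Its log2 fold change in the mean was 0.00 (SE 0.44, 95% interval -1.0 to 1.01), with an adjusted edgeR p of 1. Per kilobase of exon, GCLM averaged 23.2 ± 5.53 FPKM in the clones (SD, n = 4 clones) and 22.6 ± 6.02 FPKM in parental cells (SD, n = 2 libraries), and GCLC 9.44 ± 1.68 FPKM in the clones and 11.3 ± 0.410 FPKM in parental cells, and the modifier subunit had the higher mean in both.

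Peroxide removal through thioredoxin is represented by TXNRD1 and SRXN1. TXNRD1 (hg19 chromosome 12, 104609557 to 104744085, plus strand, 18 exons), the cytosolic thioredoxin reductase, had the highest mean of the 9 per kilobase over the clones, at 216 ± 64.6 FPKM in the clones (SD, n = 4 clones) and 148 ± 15.7 FPKM in parental cells (SD, n = 2 libraries). NQO1 stood as high in ABTr2 (167 ± 96.3 FPKM) and in parental cells (149.5 ± 70.8 FPKM; SD, n = 2 libraries each). TXNRD1 had 1093 and 465 CPM in ABTr1, 853 and 661 CPM in ABTr2, 1202 and 887 CPM in ABTr3 and 2059 and 733 CPM in ABTr4, against 632 and 734 CPM in parental PEO1. ABTr3 was the 1 clone with both libraries above both parental ones, and the ABTr4 mean rested on its replicate 1. The log2 fold change was 0.50 in the mean (SE 0.43, 95% interval -0.49 to 1.48, adjusted p = 0.48, edgeR) and 1.03 in ABTr4 (SE 0.54, 95% interval -0.19 to 2.25, adjusted p = 0.27, edgeR). SRXN1 (hg19 chromosome 20, 627268 to 634014, minus strand, 2 exons), the sulfiredoxin that restores overoxidized peroxiredoxins, stood at 59.0 to 115.5 CPM in the clone libraries and at 99.1 and 70.7 CPM in the parental ones. ABTr3 had its highest mean, 107 ± 12.4 CPM, and parental PEO1 and the other 3 clones lay between 78.4 and 84.9 CPM with overlapping ranges. The log2 fold change of SRXN1 in the mean was 0.03 (SE 0.29, 95% interval -0.63 to 0.70, adjusted p = 0.95, edgeR).

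NQO1 (hg19 chromosome 16, 69743304 to 69760571, minus strand, 6 exons), the quinone reductase that is often used as a readout of NRF2, had 261 and 294 CPM in ABTr1, 261 and 619 CPM in ABTr2, 202 and 270 CPM in ABTr3 and 280 and 406 CPM in ABTr4, against 261 and 525 CPM in parental PEO1. The lower library of ABTr1, ABTr2, ABTr4 and parental PEO1 lay at nearly the same level, and replicate 2 of these groups ranged more widely. In the mean of the clones NQO1 had a log2 fold change of -0.32 (SE 0.36, 95% interval -1.14 to 0.50, adjusted p = 0.60, edgeR). That value was 0.27 with PEO1 replicate 2 left out and -0.78 with PEO1 replicate 1 left out.

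AKR1C1 (hg19 chromosome 10, 5005454 to 5020158, plus strand, 9 exons), an aldo-keto reductase of steroids and lipid aldehydes and one of the strongest NRF2 targets in human cells, had between 2 and 26 reads per library. There were 18 and 13 reads in ABTr1, 10 and 4 in ABTr2, 26 and 17 in ABTr3 and 2 and 22 in ABTr4, against 6 and 26 reads in parental PEO1, which is 0.0430 to 0.678 CPM in the clone libraries and 0.149 and 1.01 CPM in the parental ones. The 2 parental libraries thus spanned all 8 clone libraries except replicate 1 of ABTr4, and the log2 fold change of -0.68 had an SE of 0.86 and a 95% interval of -2.63 to 1.27 (adjusted p = 0.64, edgeR). The coding sequence of AKR1C1 is 98.0% identical to that of its neighbour AKR1C2, 91.9% to AKR1C3 and 88.5% to AKR1C4 (longest open reading frames of GENCODE transcripts), so reads could be placed on the wrong copy. AKR1C2 had 55 reads in the 8 clone libraries and 6 in the 2 parental ones, and AKR1C4 had 5 and 1. AKR1C3, also a prostaglandin reductase, had more reads than the other copies, at 8.65 ± 4.67 CPM in the clones (SD, n = 4 clones) and 2.29 ± 2.40 CPM in parental cells (SD, n = 2 libraries). Its log2 fold change was 1.69 (SE 1.29, adjusted p = 0.42, edgeR), and 1.68 (SE 0.37, adjusted p = 0.0059, edgeR) with the block, and replicate 2 was several times above replicate 1 in every group. Without the block it was 0.82 with PEO1 replicate 1 left out and 3.61 with PEO1 replicate 2 left out. With the reads of AKR1C1, AKR1C2 and AKR1C3 summed, the log2 fold change was 1.47 (adjusted p = 0.43, edgeR) in place of the -0.68 of AKR1C1 alone.

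The antioxidant response element has the core TGACNNNGC, read on either strand. RefSeq promoter windows (GRCh38.p14) of 250 bases before to 50 bases after a start site were at hand for 8 of the 9 genes, 11 windows in all, and not for HMOX1. The core was found in windows of KEAP1, GCLM and TXNRD1, 3 of the 8 genes. Counted by window it was in 4 of the 11, beside 13.3% of all 35116 windows. The 120 bases before the start are shown for 1 window of each of these genes, since they let the element be seen beside its start site; the core stands in capitals, and the lines read 5′ to 3′ on the strand of the gene. The GCLM window is chr1:93909431-93909550 (minus strand), that of TXNRD1 is at the downstream of its 2 start sites, chr12:104286912-104287031 (plus strand), and that of KEAP1 is at the downstream of its 2 start sites, chr19:10502772-10502891 (minus strand).
GCLM: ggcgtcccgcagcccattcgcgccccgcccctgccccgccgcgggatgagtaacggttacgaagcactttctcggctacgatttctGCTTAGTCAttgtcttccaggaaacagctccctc
TXNRD1: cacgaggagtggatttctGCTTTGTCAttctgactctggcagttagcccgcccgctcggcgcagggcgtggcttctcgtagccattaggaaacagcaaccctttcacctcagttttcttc
KEAP1: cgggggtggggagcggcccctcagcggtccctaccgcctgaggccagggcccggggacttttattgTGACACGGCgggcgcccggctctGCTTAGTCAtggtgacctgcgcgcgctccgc
GCLM and KEAP1 hold the same 9 letters, TGACTAAGC, on the opposite strand, beginning 34 and 31 bases before the start. TXNRD1 holds TGACAAAGC on the opposite strand, beginning 102 bases before it, and KEAP1 a further match, TGACACGGC, on its own strand. The upstream window of TXNRD1, not shown, holds 2 further matches. In the mean of the clones the log2 fold changes of these 3 genes were 0.00 for GCLM, 0.50 for TXNRD1 and -0.41 for KEAP1, and none passed. A match is a run of letters and not a bound site, and for the other 5 genes it says only that the letters are not in these windows.

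The difference between the 2 libraries of a group had the same sign in all 5 groups for 4 of the 9 genes. NFE2L2 and NQO1 were higher in replicate 2 of each group, by 0.285 to 0.722 for NFE2L2 and 0.174 to 1.25 for NQO1 on the log2 scale. GCLM and SRXN1 were lower there, with log2 differences of -0.29 to -1.35 for GCLM and -0.24 to -0.85 for SRXN1. The widest such gap of NQO1, 1.25 in ABTr2, was larger than its log2 fold change in any clone (-0.74 to 0.16), and that of GCLM, -1.35 in ABTr2, was larger in size than its log2 fold change in any clone (-0.53 to 0.35). Across the 10 libraries, NFE2L2 and NQO1 varied together (Pearson's r = 0.82), GCLM varied with SRXN1 (r = 0.67) and NQO1 against SRXN1 (r = -0.75). These r values describe 10 libraries that share their replicate number and a depth that goes with it, and no test was made of them.

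**Figure D3:**
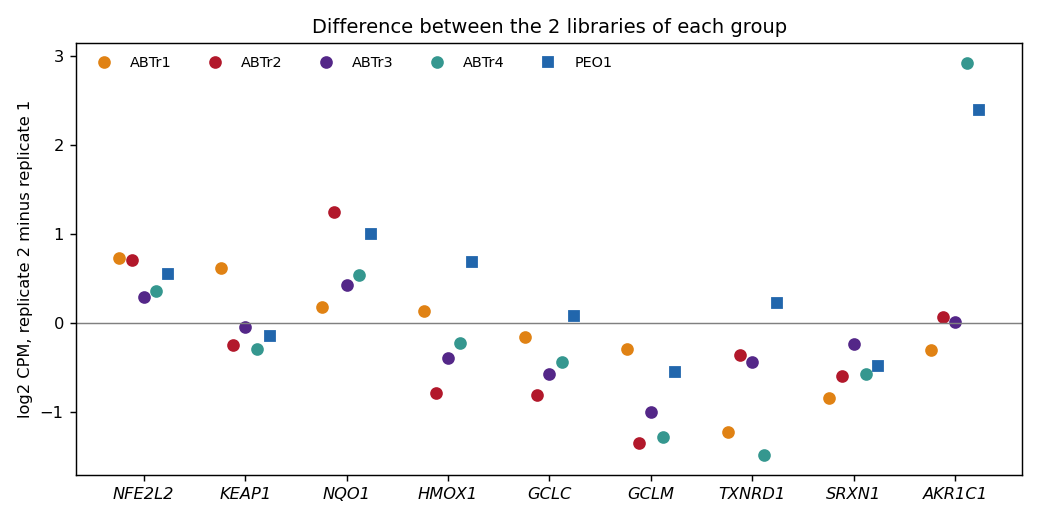
Log2 CPM of replicate 2 minus replicate 1 (vertical axis) for each of the 9 genes in the 4 clones (circles) and parental PEO1 (squares). NFE2L2 and NQO1 lie above 0 and GCLM and SRXN1 below 0 in all 5 groups, while the other 5 genes have both signs.

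The genes whose log2 CPM followed each member most closely over the 10 libraries were of mixed kinds. HMOX1 was followed by QKI, an RNA-binding protein (r = 0.92), and TPM4, a tropomyosin of the actin skeleton (r = 0.865). KEAP1 was followed by the stress transcription factor ATF5 (r = 0.965) and by POLDIP3 (r = 0.95). For NFE2L2 they were FAM46A (r = 0.94) and GBP1, an interferon-induced GTPase (r = 0.94). They were for NQO1 PECR and NUDT2 (both r = 0.95), and for GCLC HNRNPH3 (r = 0.94). For GCLM they were FEM1A (r = 0.97) and TACC1 (r = 0.96). SRXN1 was followed by the sulfate transporter SLC26A2 and the microtubule end protein MAPRE1 (both r = 0.96). TXNRD1 was followed by NSUN4 (r = 0.915) and FAM86EP (r = 0.895), and AKR1C1 by BLOC1S3 and PLEKHG1 (both r = 0.85). None of these neighbours was another of the 9 genes, and they were picked as the closest of at least 11315 genes compared over 10 libraries, with no test.

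Genes of related metabolism changed in both directions. Of 106 tested genes on 8 lists of redox metabolism and NRF2 control, 10 rose and 16 fell in the mean of the 4 clones, 24.5% of them, beside 16.0% of all genes. Their median log2 fold change was -0.19, beside 0.02 over all genes. With the block 15 rose and 29 fell, 41.5% of them, beside 34.6% of all genes. The count of 26 was 4 without PEO1 replicate 2, which is 3.74% of the list genes tested in that fit, beside 5.36% of all genes. Without any other single library the count also fell below 26, as did the count over all genes below 2631. In each of those fits the share of list genes called stayed above that of all genes.

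On the list of glutathione synthesis and use, 7 of 20 tested genes fell and 0 rose, beside 16.0% of all genes called in either direction, with a median log2 fold change of -0.20. The 7 were the transport genes SLC7A11 and SLC3A2 and genes that recycle, use or degrade glutathione (GSR, GPX7, GSTP1, MGST1 and CHAC1), of which GSR, GPX7 and GSTP1 were named after their values were seen. The synthesis gene GSS stood at 0.12 (SE 0.18) and did not pass. SLC7A11, the cystine transporter that feeds glutathione synthesis and a known NRF2 target, had 41.1 and 16.2 CPM in ABTr1, 25.2 and 21.0 CPM in ABTr2, 30.8 and 29.5 CPM in ABTr3 and 18.0 and 17.5 CPM in ABTr4, against 38.1 and 208 CPM in parental PEO1. The parental libraries differed from each other by more than any clone library differed from the lower of them. Its log2 fold change of -2.33 (SE 0.47, adjusted p = 0.013, edgeR) was -0.65 without PEO1 replicate 2 (adjusted p = 0.39, edgeR). Its partner chain SLC3A2 fell by 2.22 (SE 0.37) and CHAC1, which degrades glutathione, fell by 2.90 (SE 0.59) on the log2 scale. Without PEO1 replicate 2 they stood at -1.59 (adjusted p = 0.090, edgeR) and -0.78 (adjusted p = 0.48, edgeR). SLC7A11 and CHAC1 also missed the threshold with limma-voom. The microsomal glutathione transferase MGST1 was more even, with 112 to 227 CPM in the clone libraries and 339 and 514 CPM in the parental ones (log2 fold change -1.28, SE 0.19, adjusted p = 0.0037, edgeR, and -0.95 with one of 0.057 without PEO1 replicate 2).

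Among 15 tested partners, repressors and relatives of NRF2, 2 rose and 1 fell, beside 16.0% of all genes called in either direction. BACH1 is the heme-sensing repressor that competes with NRF2 at HMOX1 and other targets. All 8 clone libraries stood above both parental ones, as for 14.5% of all tested genes. BACH1 had 161 to 267 CPM in the clone libraries and 116 and 92.6 CPM in the parental ones, without overlap. It rose 1.96-fold (log2 fold change 0.97, SE 0.24, adjusted p = 0.027, edgeR), a call that ended without either parental library, either ABTr1 library or ABTr3 replicate 2, and when each clone counted as 1 unit. Its log2 fold change was 1.11 with PEO1 replicate 1 left out and 0.82 with PEO1 replicate 2 left out. NFE2L3, a cap'n'collar relative of NRF2, did not overlap either, with 30.9 to 49.4 CPM in the clone libraries and 13.7 and 4.76 CPM in the parental ones. It passed in the mean (log2 fold change 1.95, SE 0.38, adjusted p = 0.011, edgeR), in each of the 4 clones (1.78 to 2.32) and in all 16 alternative settings. DPP3, which binds KEAP1 and frees NRF2, fell by 0.82 (SE 0.19, adjusted p = 0.021, edgeR) on the log2 scale. Its call ended without either parental library, ABTr1 replicate 1 or ABTr3 replicate 2 and when each clone counted as 1 unit. SYVN1, a ubiquitin ligase that acts on NRF2, had a log2 fold change of -0.51 (SE 0.19, adjusted p = 0.11, edgeR, and 0.038 with the block), and that of CUL3, the scaffold of the KEAP1 ligase, was -0.41 (SE 0.20). The small MAF gene MAFG stood at -0.20 (SE 0.30), NFE2L1 at 0.31 (SE 0.19) and SQSTM1, the autophagy receptor that sequesters KEAP1, at -0.08 (SE 0.36), and none of these passed without the block. SYVN1 was -0.82 (adjusted p = 0.040, edgeR) with PEO1 replicate 1 left out and -0.18 with PEO1 replicate 2 left out.

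Of 11 tested heme and iron genes, 3 fell and 0 rose, 27.3% beside 16.0% of all genes, with a median log2 fold change of -0.70. SLC48A1, which moves heme out of the lysosome, had 32.7 to 63.5 CPM in the clone libraries and 77.2 and 349 CPM in the parental ones (log2 fold change -2.32, SE 0.42, adjusted p = 0.0083, edgeR). ABCB6, a porphyrin transporter, fell by 2.38 (SE 0.48) and FECH, which inserts iron to form heme, fell by 0.74 (SE 0.21) on the log2 scale. With PEO1 replicate 2 left out SLC48A1 and ABCB6 were at -0.86 (adjusted p = 0.21, edgeR) and -1.33 (adjusted p = 0.22, edgeR), and the FECH call, with an adjusted edgeR p of 0.049, held without only 1 of the 10 libraries, ABTr2 replicate 2, and ended with limma-voom and when each clone counted as 1 unit. FTH1, the ferritin heavy chain, whose reads may be shared with its many pseudogenes, had 1475 to 8804 CPM in the clone libraries and 5577 and 19660 CPM in the parental ones, a log2 fold change of -1.57 (SE 0.59, adjusted p = 0.11, edgeR) that passed with the block (-1.46, SE 0.17, adjusted p = 1.9e-04, edgeR). Without the block FTH1 was -2.25 with PEO1 replicate 1 left out and -0.39 (adjusted p = 0.80, edgeR) with PEO1 replicate 2 left out.

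**Figure D4:**
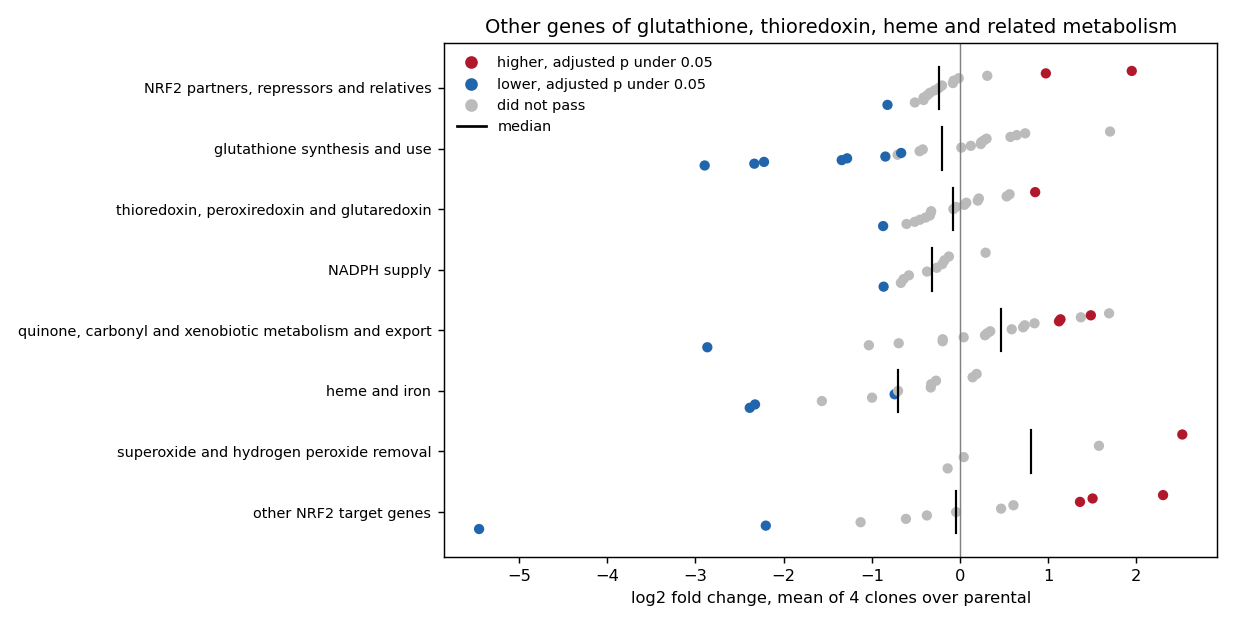
Log2 fold change of the mean of the 4 clones over parental PEO1 (horizontal axis) for the 106 tested genes of the 8 lists; red and blue points passed as higher and lower at an edgeR adjusted p under 0.05, grey points did not, and black bars are list medians. The glutathione list has 7 blue and 0 red points, and the other NRF2 targets run from SLC6A9 at -5.45 to NR0B1 at 2.30.

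Of 18 tested quinone, carbonyl and xenobiotic genes, 3 rose and 1 fell, 22.2% beside 16.0% of all genes, with a median log2 fold change of 0.47. PTGR1, a reductase of prostaglandins and alkenals, rose 2.80-fold to 53.7 ± 8.15 CPM in the clones (SD, n = 4 clones), against 19.1 ± 2.39 CPM in parental cells (SD, n = 2 libraries; adjusted p = 0.013, edgeR). NQO2, the other quinone reductase, rose 2.18-fold (adjusted p = 0.018, edgeR) and the export pump ABCC2 rose 2.20-fold (adjusted p = 0.039, edgeR). The PTGR1 and NQO2 calls ended without either parental library, that of NQO2 also when each clone counted as 1 unit, and ABCC2 kept its call without only 1 of the 10 libraries, ABTr3 replicate 2. ABCC2 also missed the threshold without the filter on low counts and when each clone counted as 1 unit. AKR1B10, an aldo-keto reductase and another strong NRF2 target in human cells, was low, at 0.127 to 1.59 CPM in the clone libraries and 1.14 and 6.34 CPM in the parental ones. Its log2 fold change of -2.86 (SE 0.75, adjusted p = 0.034, edgeR) was -1.16 without PEO1 replicate 2, and the call also ended without either ABTr1 library, either ABTr3 library or ABTr4 replicate 1 and with limma-voom.

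Of 11 other NRF2 target genes, 3 rose and 2 fell, 45.5% beside 16.0% of all genes, with a median log2 fold change of -0.04. The third rise, named after its values were seen, was that of the nuclear receptor gene NR0B1 (log2 fold change 2.30, SE 0.65, adjusted p = 0.044, edgeR); it was not refitted with single libraries left out. OSGIN1, an oxidative stress growth inhibitor, had 3.57 to 8.67 CPM in the clone libraries and 1.98 and 2.40 CPM in the parental ones (log2 fold change 1.36, SE 0.36, adjusted p = 0.034, edgeR). PIR, an iron-binding nuclear protein, had 2.01 to 5.80 CPM in the clone libraries and 0.967 and 1.39 CPM in the parental ones (2.84-fold, adjusted p = 0.035, edgeR). Both lay above the parental range in all 8 clone libraries, as did 14.5% of all tested genes. Both calls ended without either parental library or either ABTr1 library and when each clone counted as 1 unit. That of OSGIN1 also ended without ABTr2 replicate 1 or either ABTr3 library, and that of PIR without ABTr2 replicate 2, ABTr3 replicate 2 or either ABTr4 library. TRIM16, a ubiquitin ligase whose reads may be shared with its copy TRIM16L, had 7.07 to 16.8 CPM in the clone libraries and 44.8 and 67.2 CPM in the parental ones (log2 fold change -2.20, SE 0.26, adjusted p = 0.0013, edgeR). SLC6A9, a glycine transporter, had 0.215 to 2.55 CPM in the clone libraries and 16.6 and 92.9 CPM in the parental ones (log2 fold change -5.45, SE 0.60, adjusted p = 8.9e-04, edgeR). Both passed in each of the 4 clones and in all 16 alternatives, and SLC6A9 stood at -3.73 without PEO1 replicate 2.

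The thioredoxin, NADPH and superoxide genes mostly did not pass. Of 17 thioredoxin, peroxiredoxin and glutaredoxin genes, 1 rose and 1 fell, 11.8% beside 16.0% of all genes. PRDX6, a peroxiredoxin that reduces lipid peroxides, had 97.8 to 207 CPM in the clone libraries and 262 and 241 CPM in the parental ones (log2 fold change -0.87, SE 0.20, adjusted p = 0.022, edgeR). The call ended without either parental library or ABTr1 replicate 1. TXNRD3, a relative of TXNRD1, had a log2 fold change of 0.85 (SE 0.24, adjusted p = 0.046, edgeR) that missed the threshold when any 1 of the 10 libraries was left out. GLRX2 and GLRX3 stood at -0.61 (SE 0.21) and -0.51 (SE 0.22) and passed with the block, and thioredoxin itself, TXN, stood at 0.20 (SE 0.19). GLRX3 was -0.19 with PEO1 replicate 1 left out and -0.80 with PEO1 replicate 2 left out. Of 10 NADPH genes, 1 fell and 0 rose, 10.0% beside 16.0% of all genes. The pentose phosphate enzyme TKT fell by 0.87 (SE 0.23, adjusted p = 0.038, edgeR) on the log2 scale. Its call held without PEO1 replicate 1, ABTr1 replicate 2 or ABTr2 replicate 2 and ended without any of the other 7. PGLS, of the same pathway, stood at -0.67 (SE 0.39, and an adjusted edgeR p of 0.0072 with the block) and RPE at -0.37 (SE 0.18). PGLS was -1.12 with PEO1 replicate 1 left out and -0.11 (adjusted p = 0.92, edgeR) with PEO1 replicate 2 left out. Of the 4 genes of superoxide and peroxide removal, the extracellular dismutase SOD3 rose 5.74-fold at a low level, with 1.66 to 7.29 CPM in the clone libraries and 0.570 and 0.696 CPM in the parental ones (adjusted p = 0.014, edgeR, and 0.076 and 0.082 without PEO1 replicate 1 and 2). SOD2, the mitochondrial dismutase, was higher in replicate 2 of every group, with 95.7 to 386 CPM in replicate 1 and 755 to 2162 CPM in replicate 2 of the clones, against 128 and 302 CPM in replicate 1 and 2 of parental PEO1. Its log2 fold change was 1.58 (SE 1.13, adjusted p = 0.38, edgeR), and 1.05 (SE 0.31, adjusted p = 0.024, edgeR) with the block. Without the block SOD2 was 1.04 with PEO1 replicate 1 left out and 2.32 with PEO1 replicate 2 left out. SOD1 and catalase (CAT) stood at 0.04 (SE 0.20) and -0.14 (SE 0.42).

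In the test of differences among the 4 clones 0 of the 9 passed with edgeR, with DESeq2, with limma-voom and with the block. Of all genes 0.00606% passed with edgeR without the block and 0.843% with it. At an unadjusted p under 0.05 there was 1 of the 9, HMOX1. In ABTr1, ABTr3 and ABTr4 against parental 0 of the 9 passed without the block, with edgeR, DESeq2 or limma-voom. Of all genes 9.77%, 7.37% and 9.71% passed with edgeR. DESeq2 called 3002, 2428 and 2963 genes, beside 1611, 1216 and 1602 with edgeR, and the shares with limma-voom are not given here. At an unadjusted p under 0.05 there was 1 in ABTr1 (KEAP1), 1 in ABTr3 (HMOX1) and 0 in ABTr4. With the block the counts were 0, 2 and 1 in ABTr1, ABTr3 and ABTr4, beside 30.1%, 22.6% and 27.0% of all genes, and 1 in ABTr2, beside 22.1%. These comparisons share the parental libraries, so their values are not independent of each other.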

How the data were processed

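The authors deposited raw counts per gene for 10 libraries. The submitters' processing notes name hg19, TopHat2 2.0.14 and featureCounts 1.4.6 of Subread, while strand and multiple-match settings were not given in the sources used here. The design text names 15 samples; the other libraries were not analysed here. Descriptions number the clones otherwise than the library names, and the names were followed. Whether libraries came from separate cultures is not in the labels, and p-values then measure only spread among libraries, which may be technical.

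Genes passing edgeR's expression filter (16490 of 25370) were scaled by TMM and tested with edgeR 4.0.16 quasi-likelihood, with group means, 5 residual degrees of freedom, and p-values adjusted (Benjamini-Hochberg) across every gene tested, at a threshold of 0.05. FPKM divides CPM by the deposited exon length. SE is the log2 fold change over the square root of F. Same-numbered libraries deviated together (r 0.28 to 0.731 over 10 pairs of groups), so a fit with that number as a block was also run. DESeq2 1.42.0, limma 3.58.1 (voom), other size factors, no filter, only the compared groups, the clone as the unit and each library left out were alternatives. The fit was tested on simulated data in which libraries varied independently. That test therefore cannot say whether the fit with or without the block is the better one here. Named genes were the 9 members, AKR1C2 to AKR1C4 and 8 related genes in any case, up to 4 genes of smallest adjusted p per list, and 2 nearest genes per member. Some genes under this rule are not reported here. The members and lists were chosen with earlier results of these data known. R 4.3.3, Python 3.11.15, matplotlib 3.10.9 and Biopython 1.88 were used.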

Additional observations from a re-analysis of the deposited data

Results flagged for a closer look

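Among the means of the 4 clones, 1 clone stood far from the other 3 for 3 of the 9 genes, its gap to the nearest taking most of the whole range (the ratio given, past Dixon's 95% critical value). For NFE2L2 it was ABTr2, with a mean log2 CPM of 7.55 and a ratio of 0.893. For KEAP1 it was ABTr1, with a mean log2 CPM of 6.55 and a ratio of 0.851. For SRXN1 it was ABTr3, with a mean log2 CPM of 6.73 and a ratio of 0.848. For independent normal values such a gap comes in about 1 in 20 groups, and whether that rate holds for these genes was not tested. For each of the 3 genes the libraries of that clone overlapped in range with those of another clone. None of the 3 genes passed the test of differences among clones (edgeR adjusted p = 0.99 for each). Only 1 of the 16490 genes tested passed it.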

How the results depend on the processing

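Depth and the 2 libraries per group limit what could pass, and where a library is left out the lone one of its group is assumed to vary like the other groups. Of the 9 genes, 0 passed in the mean; DESeq2 gave 1 and the replicate block 2, and leaving out a library gave 0 to 1. In ABTr2 the count of 1 was 0 with only the compared groups and 0 to 1 with a library left out; with the block it was 2 in ABTr3 and 1 in ABTr4. The wider lists had 26 calls, 44 with the block and 4 to 21 with a library left out. Calls over all genes numbered 2631 in the mean, 5699 with the block and 918 to 2527 with a library left out. For ABTr1 (1611) they were 3002 with DESeq2, 4956 with the block, 699 with only the compared groups and 221 to 1559 with a library left out. For ABTr2 (1008) these were 2376, 3640, 78 and 251 to 1028, for ABTr3 (1216) 2428, 3722, 659 and 81 to 1256, and for ABTr4 (1602) 2963, 4450, 447 and 453 to 1594. Among clones (1) they were 268 with DESeq2, 0 with limma-voom, 2 without the filter, 139 with the block and 0 to 1 with a library left out.

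Log2 fold changes near 0 changed sign. In the mean, GCLM was -0.0119 with DESeq2, -0.0668 with limma-voom, -0.00933 with other size factors, -0.0283 without the filter and -0.0609 with the block. SQSTM1 was 0.0178 with limma-voom and 0.00115 with the block, and SOD1 -0.0447 with the clone as the unit. AKR1C1 with its copies summed was 1.47 in the mean, 1.86 in ABTr1, 2.26 in ABTr2, 0.185 in ABTr3 and 1.59 in ABTr4; with limma-voom it was 0.335 in ABTr1 and 0.466 in ABTr3, and with the block 0.07 and 0.188. NFE2L2 in ABTr2 was 0.00192 with only the compared groups, and GCLM in ABTr4 was -0.00915 with limma-voom and -0.00433 with the block.

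With a library left out, the mean ranged from -0.777 to 0.267 for NQO1, -0.249 to 0.27 for GCLM, -0.193 to 0.262 for SRXN1, -1.56 to 1.2 for AKR1C1, -0.618 to 0.68 for SQSTM1 and -0.101 to 0.159 for SOD1. In ABTr1 the ranges were -0.969 to 0.0584 for NQO1, -0.555 to 0.68 for TXNRD1, -0.526 to 0.326 for SRXN1 and -1.19 to 1.56 for AKR1C1. In ABTr2 they were -0.423 to 0.297 for NFE2L2, -0.606 to 0.767 for NQO1, -0.479 to 0.864 for GCLM, -0.0516 to 0.308 for TXNRD1, -0.38 to 0.218 for SRXN1 and -2.44 to 0.328 for AKR1C1. In ABTr3 they were -0.501 to 0.497 for GCLM and -1.04 to 1.71 for AKR1C1, and in ABTr4 -0.654 to 0.405 for NQO1, -0.167 to 0.282 for GCLC, -0.683 to 0.615 for GCLM, -0.435 to 0.149 for SRXN1 and -3.61 to 1.21 for AKR1C1. The cause was not tested.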
